A study of Chlorocebus aethiops with 12 samples.

Results

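The genes described here are DDIT4, FOXO1, FOXO3, FBXO32, TRIM63 and SESN1, a set that links glucocorticoid signalling to growth control and protein breakdown. They were chosen by transcript accession: every non-control probe annotated with 1 of 8 listed accessions was taken, which gave 11 probes for 6 accessions among the 41000 probes and 32379 accessions of the array. No probe was found for the other 2 listed accessions (DDIT4L and a further FOXO3 transcript). All 6 accessions passed the filter on dim probes, as did 23757 accessions in all, and 10 of the 11 probes did so.

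Total RNA from COS-1, an African green monkey kidney line with fibroblast-like shape, was hybridised to 12 one-colour arrays. Cells of every group carried transfected glucocorticoid receptor (GR), a transcription factor activated by its steroid ligand, and were kept in medium with charcoal-stripped serum. Of the 4 groups, with 3 biological replicates each, GR vehicle and GR Dex received GR alone, and GR+MDFIC vehicle and GR+MDFIC Dex received GR together with MDFIC (MyoD family inhibitor domain containing). Starting 48 h after transfection, cells were given vehicle or 100 nM dexamethasone (Dex), a synthetic glucocorticoid, for 6 h. No group lacked transfected GR, so the response without it was not measured. The array probes were designed for human transcripts, and each gene name refers to the human transcript of a probe read with monkey RNA.

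FOXO transcription factors are held out of the nucleus when insulin and growth factor signalling activates the kinase Akt, and enter it when that signalling falls. In skeletal muscle they switch on FBXO32 (atrogin-1) and TRIM63 (MuRF1), the muscle-enriched ubiquitin ligases that mark proteins for degradation in atrophy, and glucocorticoids are a known trigger of this program. DDIT4 (REDD1) and the sestrins restrain the growth-promoting kinase complex mTORC1, DDIT4 through the TSC complex, and DDIT4 is known as a glucocorticoid-induced gene in muscle. COS-1 cells are not muscle, so the comparisons below describe these genes outside the tissue in which the program is best known.

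The share of spots well above background ranged from 70.3% to 75.2% over the arrays. The arrays lay on 3 slides: slide 1 held the 3 GR vehicle arrays and GR Dex replicate 1, slide 2 held GR Dex replicates 2 and 3 with GR+MDFIC vehicle replicates 1 and 2, and slide 3 held GR+MDFIC vehicle replicate 3 with the 3 GR+MDFIC Dex arrays. Slide 3 was read on another scanner and was dimmer, with a mean 75th percentile signal of 386 against 850 and 868. The Dex comparison in GR cells can be made within slide 1 and that in GR+MDFIC cells within slide 3, in each case with a single array in 1 of the arms. No slide holds GR and GR+MDFIC cells of the same treatment, so with slide as a fixed block a difference with MDFIC rests on links between slides, through the Dex arrays and vehicle arrays that share one. Under that block 71 and 48 accessions were called for MDFIC with vehicle and with Dex, against 210 and 1317 without it. An MDFIC probe (NM_199072) read -3.23 ± 0.06 in GR vehicle and 5.68 ± 0.17 in GR+MDFIC vehicle cells (log2 level, SD, n = 3), while its other probe read -1.99 ± 0.25 and -2.16 ± 0.13. The group means of the GR probes (NR3C1, NM_001018077) lay between 8.09 and 8.79 in all groups. After Dex 1 of them (A_23_P214059) fell by 0.27 in GR cells (limma adjusted p = 0.0457) and by 0.40 in GR+MDFIC cells (adjusted p = 0.00529), and the other gave -0.54 and -0.41 and did not pass (adjusted p = 0.184 and 0.207). The first MDFIC probe fell by 0.59 after Dex in GR+MDFIC cells (adjusted p = 0.0103). The part of these differences in the results was not tested. The fibroblast and epithelial markers VIM, KRT8 and KRT18 were well above background on all 12 arrays and the blood and endothelial markers PTPRC and PECAM1 on 0 and CDH5 on 1. Of the skeletal muscle markers, MYOD1, MYOG and DES were well above background on all 12 arrays and CKM on 5.

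All levels below are log2 values relative to the 75th percentile of the same array, and differences are on the log2 scale with the standard error of a limma fit to all 12 arrays. A gene is said to have risen or fallen where the Benjamini-Hochberg adjusted p of its brightest probe, over the 23757 accessions, was under 0.05. For a further probe, named as such, the adjustment was over the 30179 probes past the filter. Levels of different probes are not compared, because probes differ in brightness for the same amount of RNA. In bulk RNA, a change in a fraction of the cells and a smaller change in all of them cannot be told apart.

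After Dex, TRIM63 rose in cells of both transfections, FOXO1 rose and DDIT4 fell in GR+MDFIC cells, and 1 of the 3 probes of FBXO32 rose in both. The dimmer FOXO1 probe rose in both as well, and the dimmer FOXO3 probe in GR+MDFIC cells. In GR cells 1 of the 6 genes passed the test (TRIM63, higher), against 7.17% of all accessions, 4.4% higher and 2.77% lower. In GR+MDFIC cells 3 of 6 did (FOXO1 and TRIM63 higher, DDIT4 lower), against 13.5% of all accessions, 6.6% higher and 6.94% lower. The count over all accessions moved with single arrays. In GR cells it was 1704, and from 1073 to 1120 without GR vehicle replicate 1 or 3 or without GR Dex replicate 1 or 2. In GR+MDFIC cells it was 3217, and 6311 (26.6%) without vehicle replicate 3, 1815 and 1980 without vehicle replicates 1 and 2, and 2114 without Dex replicate 3. Dex and vehicle arrays did not overlap for 4 of the 6 genes in GR cells, against 26.2% of all accessions, and for 5 of 6 in GR+MDFIC cells, against 32.2%. The median difference over the 6 genes was 0.20 with GR alone and 0.22 with MDFIC, where the median over all accessions was 0.01 and -0.01. SESN1 did not pass in either.

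**Figure D1:**
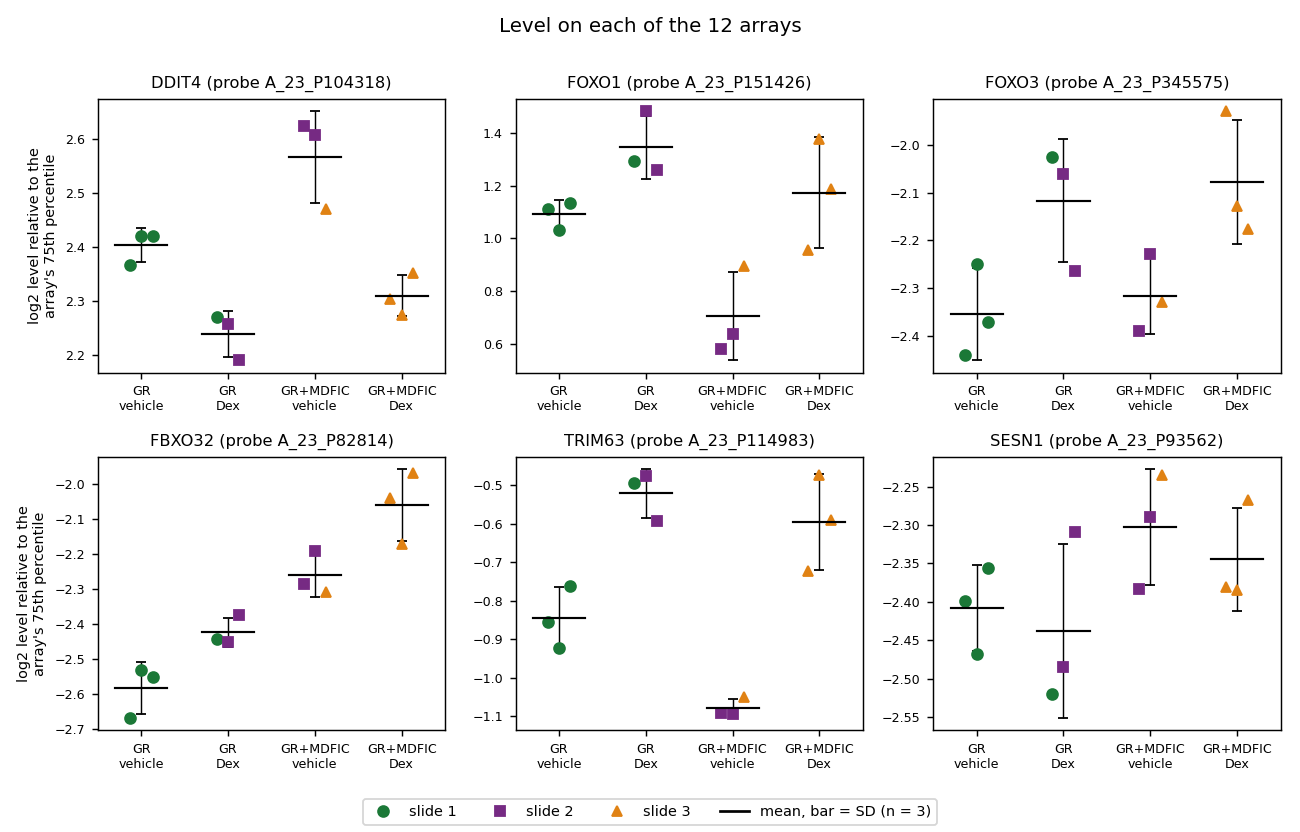
Level of each gene on each of the 12 arrays (vertical axis, log2 units from the 75th percentile of that array), by group (horizontal axis); symbols mark the slide, the horizontal line is the group mean and the bar the SD (n = 3). All 6 Dex arrays lie below all 6 vehicle arrays for DDIT4 and above them for TRIM63, and the groups of SESN1 overlap.

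DDIT4 (NM_019058, probe A_23_P104318), the inhibitor of mTORC1 that glucocorticoids induce in muscle, was lower after Dex in these cells. It read 2.37, 2.42 and 2.42 on the GR vehicle arrays and 2.27, 2.26 and 2.19 on the GR Dex arrays. With MDFIC it read 2.62, 2.61 and 2.47 after vehicle and 2.31, 2.28 and 2.35 after Dex. Every Dex array therefore lay below every vehicle array of the same transfection, and GR+MDFIC vehicle cells had the highest level and GR Dex cells the lowest.

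The DDIT4 difference was -0.26 ± 0.05 (SE) in GR+MDFIC cells, 0.837 of the vehicle level, with an adjusted p of 0.0103 by limma. In GR cells it was -0.16 ± 0.05 and did not pass (adjusted p = 0.0962). Within slides, the differences were -0.16 on slide 3 and -0.13 on slide 1. The call in GR+MDFIC cells was lost with slide as a fixed block (adjusted p = 0.261) and when the GR+MDFIC groups were fitted alone (adjusted p = 0.0832).

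FOXO1 (NM_002015), a forkhead factor that Akt restrains, is read by 2 probes that both passed the filter. The brighter one (A_23_P151426) read 1.11, 1.03 and 1.13 in GR vehicle cells and 1.29, 1.48 and 1.26 in GR Dex cells. GR+MDFIC cells gave 0.58, 0.64 and 0.89 with vehicle and 0.96, 1.38 and 1.19 with Dex. Dex arrays were higher than vehicle arrays within each transfection without overlap. The lowest group was GR+MDFIC vehicle, whose replicate on slide 3 was the highest of its 3.

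By this probe FOXO1 rose by 0.47 ± 0.12 (1.38-fold, limma adjusted p = 0.0277) in GR+MDFIC cells, and the difference of 0.25 ± 0.12 in GR cells did not pass (adjusted p = 0.280). Within slide 3 the difference in GR+MDFIC cells was 0.28, and with slide as a fixed block the call was lost (adjusted p = 0.478). It was also lost when the GR+MDFIC groups were fitted alone (adjusted p = 0.132), and without GR+MDFIC vehicle replicate 1 or 2 or GR+MDFIC Dex replicate 2 or 3 (adjusted p from 0.0776 to 0.105).

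The dimmer FOXO1 probe (A_24_P22079) read -1.58, -1.46 and -1.51 in GR vehicle cells and -1.33, -1.20 and -1.18 in GR Dex cells. GR+MDFIC arrays gave -1.42, -1.54 and -1.39 with vehicle and -1.07, -1.14 and -1.20 with Dex. All 6 Dex arrays lay above all 6 vehicle arrays. It rose by 0.28 ± 0.06 in GR cells (adjusted p = 0.0284) and by 0.31 ± 0.06 in GR+MDFIC cells (adjusted p = 0.0121), in a limma fit over the 30179 probes past the filter. With slide as a fixed block neither difference passed (adjusted p = 0.305 and 0.186). The call in GR cells was lost too on leaving out GR vehicle replicate 1, GR vehicle replicate 3, GR Dex replicate 2 or GR Dex replicate 3 (adjusted p from 0.0782 to 0.105) and with normexp and quantile scaling (0.13, adjusted p = 0.110).

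FOXO3 (NM_001455), a related forkhead factor, is also read by 2 probes. Its brighter probe (A_23_P345575) read -2.44, -2.25 and -2.37 in GR vehicle cells and -2.03, -2.06 and -2.26 in GR Dex cells. With MDFIC it read -2.39, -2.23 and -2.33 after vehicle and -1.93, -2.13 and -2.18 after Dex. Dex and vehicle arrays overlapped in GR cells, while in GR+MDFIC cells every Dex array was the higher. The difference was 0.24 ± 0.09 in both, and neither passed by limma (adjusted p = 0.174 in GR and 0.106 in GR+MDFIC cells).

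The dimmer FOXO3 probe (A_32_P102062) read -3.01, -2.96 and -3.18 in GR vehicle, -2.88, -2.99 and -3.09 in GR Dex, -3.34, -3.39 and -3.14 in GR+MDFIC vehicle and -2.83, -2.99 and -2.92 in GR+MDFIC Dex cells. GR vehicle and GR Dex overlapped, and GR+MDFIC vehicle was the lowest group. Its difference was 0.06 ± 0.09 in GR cells (adjusted p = 0.795) and it rose by 0.38 ± 0.09 in GR+MDFIC cells (limma adjusted p = 0.0221). Within slide 3 the difference was 0.23, and the call was lost with slide as a fixed block (adjusted p = 0.357) and without GR+MDFIC vehicle replicate 1 or 2 or GR+MDFIC Dex replicate 1 or 3 (adjusted p from 0.0602 to 0.0811).

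FBXO32 (NM_058229), the F-box subunit of an SCF ubiquitin ligase and a textbook FOXO target in muscle, is read by 3 probes that gave unlike values. The brightest (A_23_P82814) read -2.67, -2.53 and -2.55 in GR vehicle cells and -2.44, -2.45 and -2.38 in GR Dex cells. Cells with MDFIC gave -2.29, -2.19 and -2.31 with vehicle and -2.04, -2.17 and -1.97 with Dex. From lowest to highest the groups were GR vehicle, GR Dex, GR+MDFIC vehicle and GR+MDFIC Dex, with no overlap between neighbours. The Dex difference was 0.16 ± 0.06 in GR cells (limma adjusted p = 0.198) and 0.20 ± 0.06 in GR+MDFIC cells (adjusted p = 0.0653), and neither passed.

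The middle FBXO32 probe (A_24_P918147) gave the largest Dex differences among the 10 probes. It read -4.93, -4.61 and -4.98 in GR vehicle cells and -3.79, -3.63 and -4.29 in GR Dex cells. The values with MDFIC were -4.58, -4.37 and -4.49 with vehicle and -3.49, -3.43 and -3.52 with Dex. All 6 Dex arrays lay above all 6 vehicle arrays.

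By this probe FBXO32 rose by 0.94 ± 0.16 in GR cells (1.92-fold, adjusted p = 0.00632) and by 0.996 ± 0.16 in GR+MDFIC cells (2.00-fold, adjusted p = 0.00336), by limma over all probes past the filter. Within slide 1 the difference was 1.05 and within slide 3 it was 1.01, and with slide as a fixed block neither passed (adjusted p = 0.0661 and 0.0785). With normexp and quantile scaling, which adds an offset to every signal, the difference in GR cells was 0.13 (adjusted p = 0.0512), and in GR+MDFIC cells it was 0.26 and still passed (adjusted p = 0.000573). The third probe (A_24_P218259) did not exceed background clearly on any array and was not tested.

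**Figure D2:**
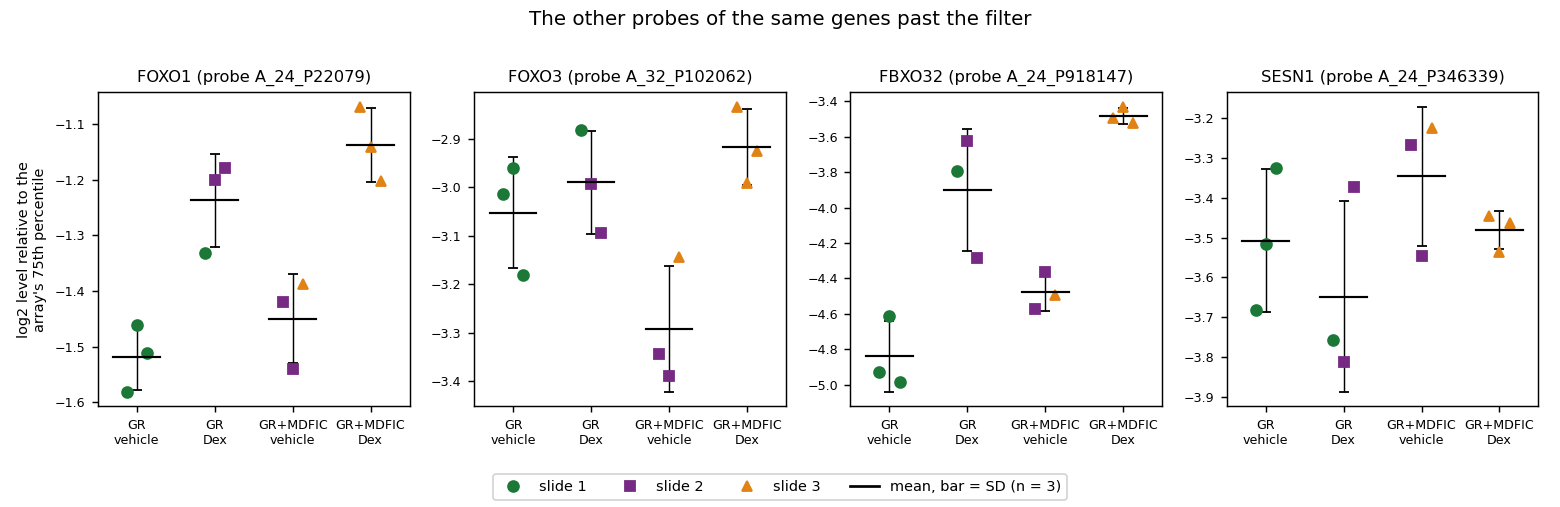
Level on each of the 12 arrays of the other probes past the filter, for FOXO1, FOXO3, FBXO32 and SESN1 (vertical axis, log2 units from the 75th percentile of that array), by group (horizontal axis); symbols mark the slide, the line is the mean and the bar the SD (n = 3). For FBXO32 the means are -4.84 and -4.48 with vehicle against -3.90 and -3.48 with Dex, and for SESN1 all groups overlap.

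For the 4 genes with 2 tested probes, the Dex effects of both probes were compared within arrays. The FBXO32 probes differed by 0.79 in their Dex effect averaged over both transfections, with a two-sided exact permutation p of 0.005, the smallest that the 400 regroupings of treatment within transfection can give (0.02 after Benjamini-Hochberg adjustment over the 4 genes). The regroupings did not keep arrays within their slides, and treatment was partly tied to slide, so these p-values do not separate treatment from slide. Within slides 1 and 3 the middle FBXO32 probe gave 1.05 and 1.01, and the brightest 0.14 and 0.25. With normexp and quantile scaling, tried after the data were seen, they differed by 0.12 (exact permutation p = 0.03, 0.12 after adjustment). The FOXO1, FOXO3 and SESN1 probes differed by -0.06, -0.02 and -0.10, with exact permutation p-values of 0.515, 0.83 and 0.24. Which FBXO32 probe follows the monkey transcript better was not tested.

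TRIM63 (NM_032588, probe A_23_P114983), the muscle ring finger ligase that marks contractile proteins for degradation, rose in both transfections. It read -0.85, -0.92 and -0.76 in GR vehicle cells and -0.49, -0.48 and -0.59 in GR Dex cells. The GR+MDFIC values were -1.09, -1.09 and -1.05 with vehicle and -0.72, -0.47 and -0.59 with Dex. All 6 Dex arrays lay above all 6 vehicle arrays, the Dex groups overlapped each other, and GR+MDFIC vehicle was the lowest group.

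The rise in TRIM63 was 0.33 ± 0.07 in GR cells (1.25-fold, limma adjusted p = 0.0203) and 0.48 ± 0.07 in GR+MDFIC cells (1.40-fold, adjusted p = 0.00173). Within slides it was 0.35 on slide 1 and 0.46 on slide 3, and with slide as a fixed block neither passed (adjusted p = 0.145 and 0.0708). In GR cells the call was also lost with median scaling (adjusted p = 0.0662), with the GR groups fitted alone (adjusted p = 0.0554), and when GR vehicle replicate 1, GR vehicle replicate 2, GR Dex replicate 1 or GR Dex replicate 2 was left out (adjusted p from 0.0686 to 0.0795).

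SESN1 (NM_014454, probe A_23_P93562), a stress-inducible sestrin that restrains mTORC1, read -2.40, -2.47 and -2.36 in GR vehicle cells and -2.52, -2.48 and -2.31 in GR Dex cells. GR+MDFIC cells gave -2.38, -2.29 and -2.23 with vehicle and -2.38, -2.38 and -2.27 with Dex. All 4 groups overlapped with their neighbours. The Dex difference was -0.03 (95% interval -0.18 to 0.12) in GR cells and -0.04 (-0.19 to 0.11) in GR+MDFIC cells. The other SESN1 probe (A_24_P346339) gave -0.14 and -0.13, and none of these differences passed by limma.

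**Figure D3:**
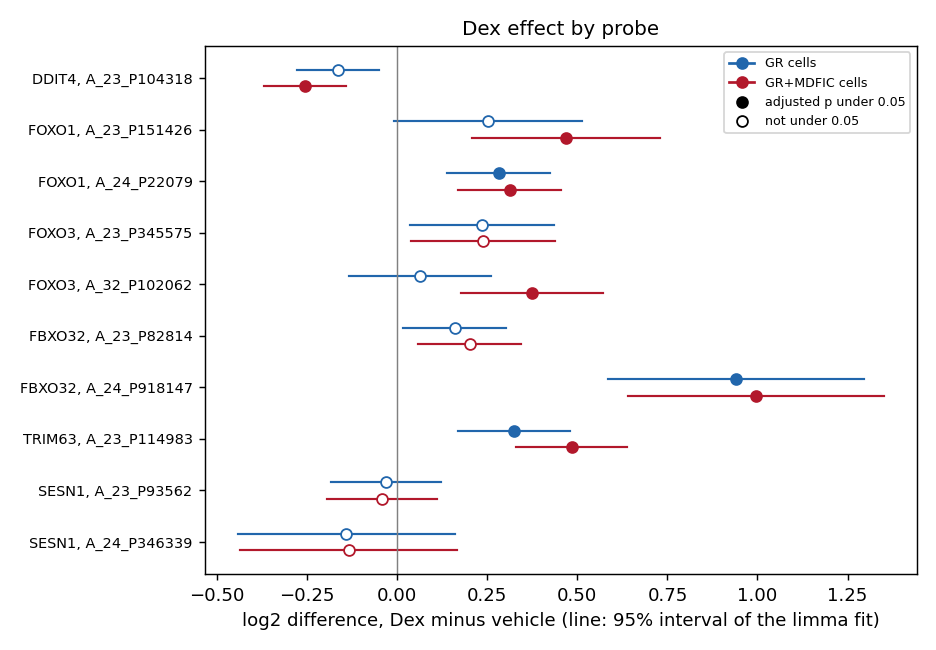
Dex minus vehicle for each probe past the filter, on the log2 scale (horizontal axis), in GR and in GR+MDFIC cells; lines are 95% intervals of the limma fit and filled points have an adjusted p under 0.05. DDIT4 lies below 0 in both, TRIM63 above 0 in both, and the larger FBXO32 values (0.94 and 0.996) come from probe A_24_P918147.

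Averaged over both transfections, a comparison added after the data were seen, the Dex effect set 6 Dex arrays against 6 vehicle arrays. By limma, 5 of the 6 genes passed, 4 higher and 1 lower, against 17.9% of all accessions, 9.14% higher and 8.72% lower. DDIT4 fell by 0.21 ± 0.04 (adjusted p = 0.00318), FOXO1 rose by 0.36 ± 0.08 (adjusted p = 0.0142), FOXO3 by 0.24 ± 0.06 (adjusted p = 0.0287), FBXO32 by 0.18 ± 0.04 on its brightest probe (adjusted p = 0.0211) and TRIM63 by 0.40 ± 0.05 (adjusted p = 0.000371). SESN1 differed by -0.04 ± 0.05 and did not pass. With slide as a fixed block only TRIM63 passed among these 6, and the FOXO3 call was lost in 6 of 12 fits that left out 1 array each (adjusted p from 0.056 to 0.0703 without GR vehicle replicate 1 or 3, GR Dex replicate 1 or 2, GR+MDFIC vehicle replicate 1 or GR+MDFIC Dex replicate 1). Without GR+MDFIC vehicle replicate 1 the FBXO32 call was lost as well (adjusted p = 0.0514), so that 3 of 6 passed. The FBXO32 call was also lost with median scaling (adjusted p = 0.108) and with normexp and quantile scaling (0.077, adjusted p = 0.128), while the mean of its probes gave 0.57. With normexp and quantile scaling the FOXO3 value was 0.14 and still passed (adjusted p = 0.0231). The groups of 6 did not overlap for 2 genes, DDIT4 and TRIM63, as was so for 9.42% of all accessions.

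Whether MDFIC altered these responses was addressed by the interaction, the Dex effect in GR+MDFIC cells minus that in GR cells. By limma, 0 of 6 genes passed, against 0.0589% of all accessions, and 0 had an unadjusted p under 0.05, against 9.85%. Over all accessions 14 passed, but 1797 (7.56%) without GR+MDFIC vehicle replicate 3, and from 2 to 95 without any 1 of the other arrays. In each of these fits 0 of the 6 genes did. The interaction was -0.09 ± 0.07 for DDIT4 (95% interval -0.25 to 0.07), 0.21 ± 0.16 for FOXO1 (-0.15 to 0.58) and 0.16 ± 0.10 for TRIM63 (-0.06 to 0.38). For the middle FBXO32 probe it was 0.06 ± 0.22 (-0.45 to 0.56), and for the dimmer FOXO3 probe 0.31 ± 0.12 (0.03 to 0.59), which did not pass after adjustment over all probes (adjusted p = 0.518). The interval for FOXO1, by its brighter probe, includes values as large as the Dex effects of that probe. The dimmer FOXO1 probe gave 0.03 ± 0.09 (-0.17 to 0.23), an interval that lies below its Dex effects of 0.28 and 0.31. The calls made in GR+MDFIC cells and not in GR cells are not shown to be particular to cells with MDFIC.

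GR+MDFIC cells were also compared with GR cells under the same treatment. With vehicle, 0 of 6 genes passed by limma, against 0.884% of all accessions, while 4 had an unadjusted p under 0.05, against 17.6%. The 210 accessions called became 565 without GR+MDFIC vehicle replicate 3, 82 to 103 without any 1 of the GR vehicle arrays, 137 without GR Dex replicate 2, 138 without GR+MDFIC Dex replicate 3, and 106 with slide as a random block. The differences with vehicle were 0.16 ± 0.05 for DDIT4 (adjusted p = 0.162), -0.39 ± 0.12 for FOXO1 (adjusted p = 0.152), 0.32 ± 0.06 for FBXO32 (adjusted p = 0.0563) and -0.23 ± 0.07 for TRIM63 (adjusted p = 0.148), and in these 4 the groups did not overlap, as was so for 22.1% of all accessions. These values are from the brightest probe of each gene. The dimmer FOXO1 probe gave 0.07 ± 0.06, with groups that overlapped (limma adjusted p = 0.623), so a lower FOXO1 level was seen on 1 probe only. The middle FBXO32 probe gave 0.36 ± 0.16 (adjusted p = 0.281). For the brightest FBXO32 probe the difference passed without GR+MDFIC vehicle replicate 3 (adjusted p = 0.0490), the group's array on slide 3. The GR+MDFIC vehicle arrays also enter the Dex effect and the interaction in those cells.

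With Dex, 1 of 6 genes passed, against 5.54% of all accessions. The 1317 accessions called became 90 to 115 without any 1 of the GR Dex arrays, 224 to 377 without any 1 of the GR+MDFIC Dex arrays, 499 to 550 without any 1 of the GR vehicle arrays, 3106 without GR+MDFIC vehicle replicate 3, and 114 with slide as a random block. FBXO32 was higher by 0.36 ± 0.06 in GR+MDFIC cells on its brightest probe (1.29-fold, limma adjusted p = 0.0246), and its middle probe gave 0.42 ± 0.16 (adjusted p = 0.147). The call was lost with slide as a fixed (adjusted p = 0.575) or random block (adjusted p = 0.0631), without each of the 3 GR Dex arrays in turn, and without GR+MDFIC Dex replicate 1 or 3 (adjusted p from 0.0593 to 0.0736). MYOD1 (NM_002478), the muscle regulator for which the MDFIC family is named, differed with MDFIC by 0.44 ± 0.10 with vehicle and did not pass (limma adjusted p = 0.0747). With Dex it was higher by 0.64 ± 0.10 (adjusted p = 0.0182). GR Dex and GR+MDFIC Dex cells share no slide, and no fit with slide as a block is given for MYOD1. Of the other muscle markers, MYOG gave -0.12 and 0.03 on its brighter probe and 0.51 and 1.71 on the other, DES gave 0.03 and 0.00, none of these passed, and CKM was too dim to be tested. On the other MYOG probe the slide 3 arrays read from -3.18 to -2.95, and those of slides 1 and 2 from -5.40 to -4.27. All GR+MDFIC Dex arrays lay on slide 3, so the MYOG value of 1.71 is also a difference between slides. The part of the muscle markers in the FBXO32 difference was not tested.

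Among the 14583 accessions well above background on every array, those whose levels over the 12 arrays were most like DDIT4 were NM_003842 (Pearson r = 0.975) and NM_012396 (r = 0.954), and those most like TRIM63 were NM_004762 (r = 0.967) and NM_004831 (r = 0.966). NM_003842 differed with Dex by -0.23 in GR and -0.44 in GR+MDFIC cells, and NM_004831 by 0.33 and 0.42. These correlations share arrays, slides and groups and are given as a description.

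The genes around this set were taken from 5 lists with 70 genes in all, of which 59 were tested. In GR cells 7 rose and 3 fell, where 4.4% of all accessions rose and 2.77% fell, and in GR+MDFIC cells 12 rose and 9 fell, where 6.6% rose and 6.94% fell. The median difference over the 59 genes was 0.00 in both, and over all accessions it was 0.01 and -0.01. The 10 genes called in GR cells and the 21 called in GR+MDFIC cells had 9 in common, each in the same direction. The overlap over all accessions is not given here, so this count is not shown to be particular to the lists. By limma 0 of the 59 passed the interaction, where 3 had an unadjusted p under 0.05, against 9.85% of all accessions. The files hold accessions without symbols, and the pairing of symbol and accession in these lists is general knowledge and not taken from the files.

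Of the regulators of Akt and FOXO, 10 of 12 were tested, 2 rose with GR alone and 3 with MDFIC, and none fell. Over all accessions 4.4% rose and 2.77% fell with GR alone, and 6.6% rose and 6.94% fell with MDFIC. PIK3R1 (NM_181523), the regulatory subunit of PI3-kinase, read from -1.55 to -1.35 in GR vehicle and from -0.99 to -0.90 in GR Dex cells, and from -1.49 to -1.33 and from -0.92 to -0.84 in the corresponding GR+MDFIC cells. It rose by 0.54 ± 0.07 in both (limma adjusted p = 0.000895 and 0.000727). PDPK1 (NM_002613), the kinase that activates Akt, rose by 0.36 ± 0.08 in GR cells (adjusted p = 0.0233) and by 0.47 ± 0.08 in GR+MDFIC cells (adjusted p = 0.00384). FOXO4 (NM_005938) rose by 0.69 ± 0.13 in GR+MDFIC cells (adjusted p = 0.00850), while another of its probes gave 0.02 ± 0.25. With normexp and quantile scaling it rose by 0.23. The calls of PDPK1 and FOXO4 were lost with slide as a fixed block, and that of PDPK1 in GR cells without any GR array other than GR vehicle replicate 2 (adjusted p from 0.0509 to 0.0890). With the mean of its probes PIK3R1 did not pass in either (adjusted p = 0.0835 and 0.0864).

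Of the genes known as FOXO targets in other cells, 13 of 16 were tested. In GR cells 3 rose and 1 fell, against 4.4% and 2.77% of all accessions. In GR+MDFIC cells 3 rose and 4 fell, against 6.6% and 6.94%. PDK4 (NM_002612), which turns pyruvate away from oxidation, read -3.23, -2.93 and -3.07 in GR vehicle and -1.41, -1.76 and -1.47 in GR Dex cells. GR+MDFIC cells gave -4.27, -4.70 and -3.00 with vehicle and -1.20, -1.11 and -1.22 with Dex. The vehicle array of GR+MDFIC cells on slide 3 was the high one of its group. PDK4 rose by 1.53 ± 0.35 in GR cells (limma adjusted p = 0.0280) and by 2.82 ± 0.35 in GR+MDFIC cells (adjusted p = 0.000774), and within slide 3 the latter was 1.83. Its call in GR cells was lost when any 1 of the 6 GR arrays was left out (adjusted p from 0.0617 to 0.0974). PDK4 still passed under normexp and quantile scaling, with 0.67 (adjusted p = 0.000952) and 1.18 (adjusted p = 6.4e-06).

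IRS2 (NM_003749), an adaptor of the insulin receptor, rose by 0.53 ± 0.04 in GR cells (limma adjusted p = 3.14e-05) and by 0.39 ± 0.04 in GR+MDFIC cells (adjusted p = 0.000167), while another of its probes gave -0.46 ± 0.33 and 0.85 ± 0.33 and the mean of its probes did not pass in GR cells (adjusted p = 0.597). BCL2L11 (NM_138621), the pro-apoptotic BIM, rose by 0.46 ± 0.05 and 0.61 ± 0.05 (adjusted p = 0.000739 and 0.000103), with smaller values at its other probes, and by 0.29 and 0.26 with the mean of its probes. TXNIP (NM_006472), an inhibitor of glucose uptake and thioredoxin, read from 0.91 to 0.96 in GR vehicle and from 0.22 to 0.32 in GR Dex cells. It fell by 0.66 ± 0.05 in GR cells (adjusted p = 7.49e-05) and by 0.67 ± 0.05 in GR+MDFIC cells (adjusted p = 5.12e-05). Genes counted as FOXO targets therefore moved in both directions.

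**Figure D4:**
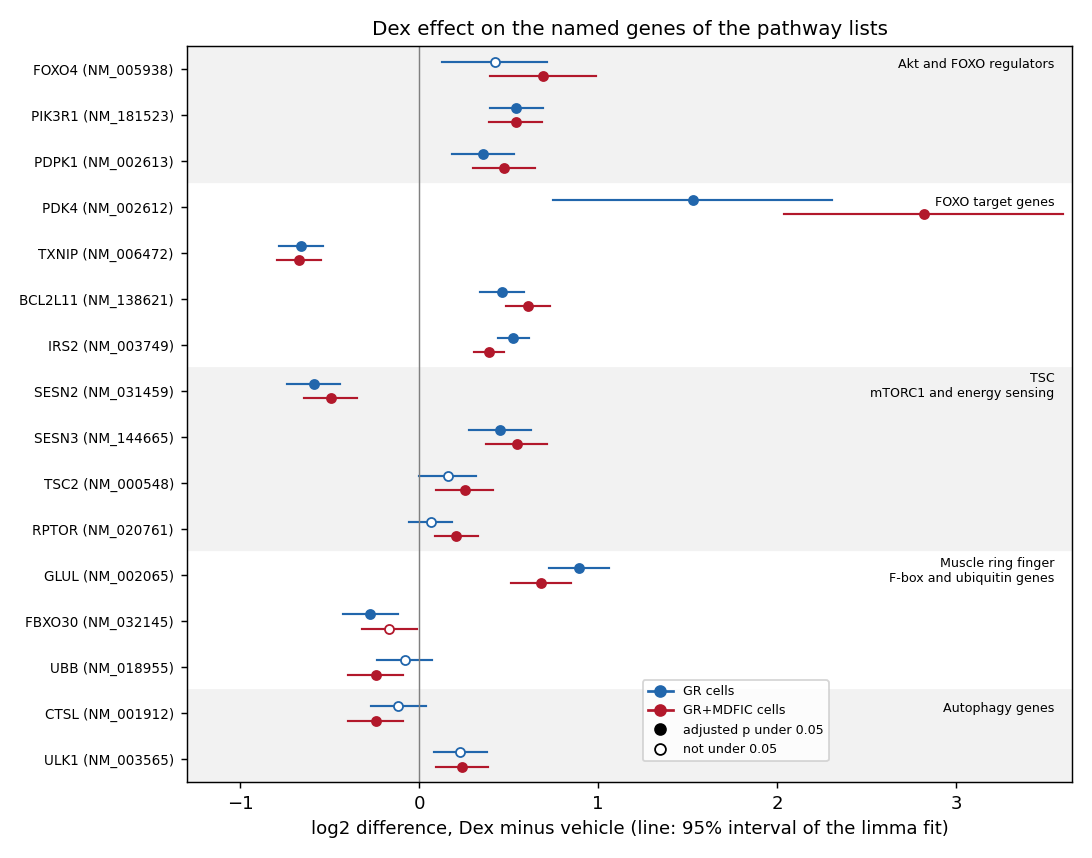
Dex minus vehicle on the log2 scale (horizontal axis) for the named genes of each list (vertical axis), in GR and in GR+MDFIC cells; lines are 95% intervals of the limma fit and filled points have an adjusted p under 0.05. PDK4 has the largest rise and TXNIP the largest fall, and UBB, whose direction depends on the scaling, lies just below 0.

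Of the TSC, mTORC1 and energy-sensing genes, 15 of 16 were tested. In GR cells 1 rose and 1 fell, against 4.4% and 2.77% of all accessions. In GR+MDFIC cells 3 rose and 1 fell, against 6.6% and 6.94%. The relatives of SESN1 moved in opposite directions. SESN2 (NM_031459) read from -1.31 to -1.20 in GR vehicle and from -1.91 to -1.76 in GR Dex cells, and fell by 0.59 ± 0.07 (limma adjusted p = 0.000580). In GR+MDFIC cells it fell by 0.50 ± 0.07 (adjusted p = 0.00130). SESN3 (NM_144665), a FOXO target in other cells, read from 0.01 to 0.10 in GR vehicle and from 0.41 to 0.56 in GR Dex cells. It rose by 0.45 ± 0.08 (adjusted p = 0.00637) and, in GR+MDFIC cells, by 0.54 ± 0.08 (adjusted p = 0.00166), while its other probes did not pass. With slide as a fixed block SESN3 lost both calls, and SESN2 the one in GR+MDFIC cells. TSC2, the partner of TSC1 through which DDIT4 acts, rose by 0.25 ± 0.07 in GR+MDFIC cells (adjusted p = 0.0425), and RPTOR, the scaffold of mTORC1, by 0.21 ± 0.05 (adjusted p = 0.0330). Both calls were lost without GR vehicle replicate 2, GR+MDFIC vehicle replicate 1 or 2 or any GR+MDFIC Dex array, that of TSC2 also without GR Dex replicate 1 or 2 and that of RPTOR without GR vehicle replicate 3 (adjusted p from 0.0516 to 0.149).

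Of the list of muscle ring finger, F-box and ubiquitin genes, which also holds the glutamine synthetase gene GLUL, 9 of 14 were tested. With GR alone 1 was higher (GLUL) and 1 lower (FBXO30), against 4.4% and 2.77% of all accessions. With MDFIC 2 were higher and 3 lower, against 6.6% and 6.94%. GLUL (NM_002065), glutamine synthetase, a glucocorticoid-induced enzyme of wasting muscle, read from -1.80 to -1.79 in GR vehicle and from -0.96 to -0.86 in GR Dex cells. It rose by 0.89 ± 0.07 in GR cells (limma adjusted p = 8.03e-05) and by 0.68 ± 0.07 in GR+MDFIC cells (adjusted p = 0.000361). UBB, a polyubiquitin gene, fell by 0.24 ± 0.07 (adjusted p = 0.0467) in GR+MDFIC cells, where it did not pass with quantile scaling (adjusted p = 0.871), and with normexp and quantile scaling it was higher by 0.03. Its call was lost without any GR array other than GR Dex replicate 2, and without any GR+MDFIC array other than vehicle replicate 3 and Dex replicate 1 (adjusted p from 0.0507 to 0.143). FBXO30 fell by 0.27 ± 0.07 in GR cells (adjusted p = 0.0435), a call lost without any GR array, GR+MDFIC vehicle replicate 1 or 2 or GR+MDFIC Dex replicate 2 or 3 (adjusted p from 0.0503 to 0.151). Of the autophagy genes 12 of 12 were tested. With GR alone 0 passed by limma, while 3 had an unadjusted p under 0.05, against 19.0% of all accessions, and with MDFIC ULK1, the kinase that starts autophagy, rose by 0.24 ± 0.07 (adjusted p = 0.0400) and CTSL, a lysosomal protease, fell by 0.24 ± 0.07 (adjusted p = 0.0443). Both autophagy calls were lost without GR vehicle replicate 2 or 3, GR Dex replicate 2, GR+MDFIC vehicle replicate 1 or any GR+MDFIC Dex array, that of ULK1 also without GR+MDFIC vehicle replicate 3, and that of CTSL without GR vehicle replicate 1, GR Dex replicate 3 or GR+MDFIC vehicle replicate 2 (adjusted p from 0.0535 to 0.148). Another ULK1 probe gave 0.27 and 0.36.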

How the data were processed

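Total RNA of 12 samples was hybridised to one-colour arrays. The deposited values are intensities on a linear scale, background-subtracted by Agilent Feature Extraction (versions 12.0.0.7 and 12.0.3.1, per the file headers), with no scaling between arrays. Other deposited columns hold flags of 0 or 1 that the file headers name as signal clearly over background, saturation or uneven spots.

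For each array, log2 of the processed signal was taken and the 75th percentile over non-control spots subtracted. Outlier-flagged spots were treated as missing, which removed 34 tested values and 0 in the genes described. Probes were kept if all 3 arrays of some group showed them well above background, with at least 2 unflagged arrays in each group, and the brightest kept probe stood for its accession. A group-means model was fitted in limma 3.58.1 (R 4.3.3) with 8 residual degrees of freedom, two-sided, with Benjamini-Hochberg adjustment over 23757 accessions, or over 30179 probes for further probes. The fit was tested on simulated data. The p-values measure the spread between the replicates, which the labels call biological. In GR Dex and GR+MDFIC vehicle cells the replicates lay on different slides, so this spread also includes any difference between slides. GR+MDFIC vehicle replicates 1 and 2, which shared a slide, had a correlation of 0.993. With replicate 3, on another slide, they had correlations of 0.981 and 0.980.

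The genes, lists and tests were chosen with earlier results of these data known. From each list, at most 4 called genes with the largest Dex differences were named, apart from 1 gene that is not reported here. For each gene, the accessions most alike over the arrays were ranked by Pearson correlation, and 4 of them are given. Gene symbols of the lists and of the marker genes were paired with accessions from general knowledge. Sequences were not used here. Alternatives covered scaling, normexp background correction (offset 50, on spot medians, as the spot mean was not used here), filters, averaging the probes of an accession, slide and replicate number as blocks, thresholds, and leaving out each array. The average Dex effect, the tests of further probes under the alternatives and the probe pairs under normexp with quantile scaling were added after the data were seen. Figures were drawn with matplotlib 3.10.9.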

Additional observations from a re-analysis of the deposited data

How the results depend on the processing

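Counts of the 6 genes past the test are given with the share of all accessions past it in brackets. With Dex in GR cells the count (1 as reported) was 0 with median scaling (5.66%), slide as a fixed block (3.56%), the compared groups alone (4.57%) or a threshold of 0.01 (3.59%). It was 2 with the mean of an accession's probes (6.87%), and leaving out 1 array gave a count of 0 to 1. With Dex in GR+MDFIC cells (3 as reported) it was 5 with the mean of the probes (13.1%), 0 with the fixed slide block (3.41%), and 1 with the groups alone (5.23%) or a threshold of 0.01 (5.71%). For MDFIC in vehicle (0) it was 1 with the 75th percentile over probes well above background on all arrays (0.926%). It was also 1 with a filter that requires this (1.27%), and 0 to 1 without 1 array. For MDFIC in Dex (1) it was 0 with slide as a fixed (0.202%) or random block (0.48%) or a threshold of 0.01 (0.248%), and 0 to 1 without 1 array. For the average Dex effect (5) it was 1 with the fixed slide block (8.92%), 2 at a threshold of 0.01 (9.75%) and 3 to 5 without 1 array. The fixed slide block leaves 6 residual degrees of freedom and rests each Dex effect on 4 arrays. Same-numbered replicates deviated from their group means with correlations from -0.243 to 0.144, so the numbers were not taken to pair samples. With the replicate number as a block the counts were 1, 3, 0, 0, 1 and 5, and the dimmer FOXO1 probe did not pass in GR cells (adjusted p = 0.0587).

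Changes of sign were seen only in differences that did not pass as reported, apart from UBB in GR+MDFIC cells, and their cause was not tested. The FOXO3 interaction was -0.019 with median scaling, -0.00053 with normexp and quantile scaling, -0.075 and -0.016 with slide as a fixed and random block, and -0.073 to 0.050 without 1 array. The SESN1 interaction was 4.96e-05 with the other 75th percentile, 0.0027 with the fixed block and -0.053 to 0.053 without 1 array, and the FBXO32 interaction -0.0046 to 0.097. The MDFIC effect on FOXO3 was -0.10 in vehicle with the mean of the probes, and without 1 array -0.0055 to 0.090 in vehicle and -0.035 to 0.088 in Dex. That on SESN1 was -0.053 in vehicle and -0.050 in Dex with the fixed block. Without 1 array, the Dex effect in GR cells was -0.095 to 0.011 for SESN1 and -0.0020 to 0.11 for the dimmer FOXO3 probe. In GR cells UBB gave 0.094, 0.13 and 0.0024 with quantile scaling, normexp and quantile scaling, and the fixed block, and in GR+MDFIC cells UBB gave 0.029 with normexp and quantile scaling. Median scaling gave 1638 accessions higher of 4054 called for the average Dex effect, against 2171 of 4243. Some calls held with values that moved by over 1.5 times. With normexp and quantile scaling MDFIC in Dex gave 0.23 for FBXO32, the average Dex effect 0.20 and 0.19 for the middle FBXO32 and the dimmer FOXO1 probe, and Dex 0.15 for the dimmer FOXO3 probe in GR+MDFIC cells and 0.55 and -0.38 for GLUL and SESN2 in GR cells. With the fixed slide block ULK1 rose by 0.37 and PDK4 by 1.83 in GR+MDFIC cells. The number of arrays limits precision throughout.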
